A study of Homo sapiens with 2 samples.

Results

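The SR proteins, the hnRNP proteins and the subunits of SF3A and SF3B are nuclear proteins that bind pre-mRNA and help to decide where it is spliced. Their probe sets were taken from 2 whole-transcriptome Affymetrix U133 Plus arrays of HSC-3 cells, an established line of human oral tongue squamous cell carcinoma. A probe set was included when it carried exactly 1 gene symbol, and this symbol was SRSF with a number, began with HNRNP, or was SF3A or SF3B with a number, TRA2A or TRA2B. This gave 146 of 54613 probe sets and 42 of 19775 genes. Of these, 144 probe sets belonged to 40 protein-coding genes, with between 1 and 9 probe sets each. The other 2 were the pseudogene HNRNPA3P1 and HNRNPD-DT, a long non-coding RNA. A further 14 probe sets carried a matching symbol beside other symbols and were left out, some of HNRNPA1 and HNRNPA3 among them. Genes represented only by such probe sets included SRSF2, SRSF9, HNRNPH2, HNRNPA1L2 and the HNRNPCL genes.

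The cells carried a red fluorescent protein, brought in by lentiviral particles with a control sequence that codes for no protein, and were selected with puromycin. They grew on uncoated plastic or on a coating of Myogel, a soluble protein extract of human uterine leiomyoma. For each surface, 90000 cells were seeded per well and the cells were harvested on the next day, and equal amounts of RNA from 3 wells were combined for 1 array. The treatment text given for the Myogel sample names uncoated plates, whereas its title and source name give the Myogel coating, and these were followed. There were no replicate arrays, so no p-value was computed, and every comparison is between these 2 arrays. A lower value in such bulk RNA cannot tell fewer cells with a transcript from less of it per cell.

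In a splicing reaction, SR proteins bind enhancer sequences in exons and recruit the spliceosome, and many hnRNP proteins bind silencer sequences and counteract them. SF3A and SF3B are parts of the U2 small nuclear ribonucleoprotein, which recognises the branch point of the intron. Genes of SR and hnRNP proteins are known to control their own mRNA, through alternative exons or 3′ ends that lead to its decay. Several probe sets of such a gene may therefore detect different transcripts, and each was examined here. The files used here do not place the probe sets along the transcripts.

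The values are linear intensities from the dChip software with a floor of 1. Fold change (FC) compares Myogel with plastic, a positive log2 FC means a higher value on Myogel, and a difference of FC 1.5 or more in either direction was the limit, as in the methods of the study. Such differences are called towards Myogel where the Myogel value was higher and towards plastic where it was lower. In either direction, 38% of all probe sets passed this limit. The list given in the study is far shorter, so its selection was not reproduced by this limit alone. The signal of a probe set is the geometric mean of its 2 values, and the median signal of all probe sets was 53.8. Intensities of different probe sets do not compare amounts of RNA. The median log2 FC of all probe sets was -0.11, and quantile normalization brought it to -0.00. As a measure of spread, a range is given that covered 95% of log2 FCs among the 1000 probe sets closest in signal. Squamous and epithelial markers were bright, with values of KRT5, KRT14, CDH1, EPCAM, DSG3 and ITGB4 between 1051 and 18856 on plastic and between 1073 and 18224 on Myogel. The 5 smooth muscle markers, of the tissue from which Myogel is made, had values of at most 239.7 on plastic and 272 on Myogel.

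The brightest probe sets of the splicing factor genes differed little between the surfaces. In 36 of the 40 genes the brightest probe set stayed within FC 1.2, and in 39 it stayed within FC 1.5. SRSF12 and SF3B4 passed FC 1.2 towards Myogel and HNRNPF and HNRNPA0 towards plastic, 2 genes each way, while 18.1% and 30.8% of all genes did so. The exception at FC 1.5 was SRSF12, which was near the lower end of the scale. Thus 1 gene passed towards Myogel (2.5%) and 0 towards plastic, whereas 9.71% and 17.5% of all genes did. The 40 genes were bright, with a median signal of 3998 against 142 for all genes, and bright probe sets differed less between the arrays in general. Of all probe sets with a signal of 1000 or more, 1.44% passed FC 1.5, and of the 74 such probe sets of the splicing factor genes 2 passed (2.7%). The 40 genes had a median log2 FC of -0.01, with 20 above 0 and 20 below it, and this median changed sign to 0.02 after quantile normalization and loess centring and to 0.10 when that of all probe sets was set to 0. It was -0.10 when _x_at, _s_at and _a_at probe sets, which may detect several transcripts, were left out. Some of the 40 genes had no other kind of probe set and were missing there. When the probe sets of each gene were averaged, the median was -0.08. None of the 40 brightest probe sets lay outside the range for its signal. Of all 144 probe sets of these genes, 13 lay outside theirs. Each range holds 95% of probe sets of like signal.

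**Figure D1:**
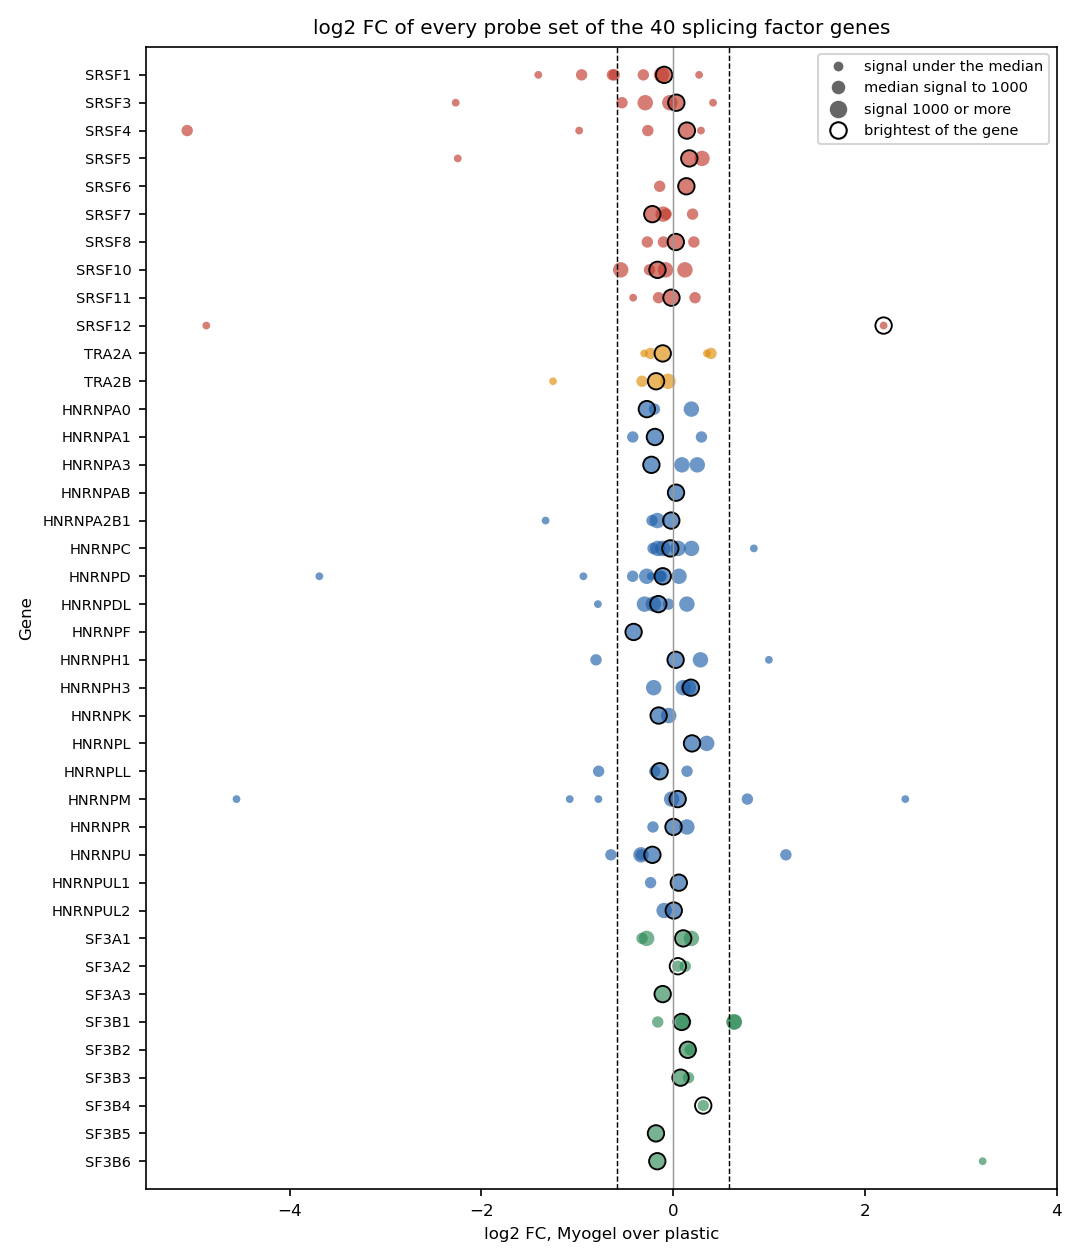
The log2 FC of Myogel over plastic (x axis) for each of the 144 probe sets of 40 protein-coding splicing factor genes (y axis, red SRSF, orange TRA2, blue HNRNP, green SF3A and SF3B). Larger points have a higher signal, black circles mark the brightest probe set of a gene, and dashed lines mark FC 1.5; 39 of the 40 circles lie between the dashed lines, and SRSF12 lies at 2.19.

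Of the 10 SR protein genes measured, 9 had a brightest probe set within FC 1.2. SRSF3, the smallest of the classical SR proteins, had 9826 on plastic and 10052 on Myogel (log2 FC 0.03). SRSF1, which binds purine-rich enhancers, had 5241 on plastic and 4908 on Myogel (log2 FC -0.09). SRSF11, an SR-related protein, had 5590.1 on plastic and 5521 on Myogel. In none of these did the arrays differ by more than 1.07-fold.

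SRSF7, which resembles SRSF3 and carries a zinc knuckle, had 3598 on plastic and 3094 on Myogel (log2 FC -0.22), the lowest log2 FC among the brightest probe sets of SR genes. SRSF10, an SR protein that acts as a repressor when it is dephosphorylated, had 1665 on plastic and 1486 on Myogel (log2 FC -0.16). SRSF4, SRSF5 and SRSF6, which form a group with long arginine and serine rich tails, were slightly higher on Myogel in their brightest probe sets. SRSF4 had 2167 on plastic and 2393 on Myogel, SRSF5 had 1848 on plastic and 2076 on Myogel, and SRSF6 had 1473 on plastic and 1619.8 on Myogel, with log2 FCs of 0.14, 0.17 and 0.14. The second probe set of SRSF5 gave 0.30 and that of SRSF6 gave -0.14. SRSF8, a close relative of SRSF2, had 2802 on plastic and 2855 on Myogel.

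SRSF12 had a low signal and its 2 probe sets went opposite ways. One, 239295_at, had 8.02 on plastic and 36.7 on Myogel (log2 FC 2.19), and the other, 1552381_at, had 42.1 on plastic and 1.44 on Myogel (log2 FC -4.87). All 4 values were under the median signal, where ranges for the log2 FC were wide (-4.83 to 5.16 for the second, which lay just outside it). The mean over both probe sets was -1.34 on the log2 scale, so the direction for this gene depends on the probe set.

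The 10 SRSF genes had a median log2 FC of 0.03, which turned to -0.32 when all probe sets of each gene were averaged. With this mean over probe sets whose higher value reached the median signal, which removed SRSF12, it was -0.05. It was -0.10 when _x_at, _s_at and _a_at probe sets were left out, which removed SRSF5 and SRSF6. Over their 43 probe sets, 1 passed FC 1.5 towards Myogel and 9 towards plastic (2.33% and 20.9%). For all probe sets these shares were 13.8% and 24.2%. The 43 had a median signal of 541 against 53.8 for all, and bright probe sets passed less often in general.

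Of the 9 SR probe sets towards plastic, 4 belonged to SRSF1. The probe set 201742_x_at had 721 on plastic and 372 on Myogel, a 1.94-fold difference outside the range of -0.62 to 0.63. Probe set 227164_at had 505 on plastic and 329.8 on Myogel and 239384_at had 150.3 on plastic and 96.9 on Myogel, each inside its range, and both fell short of FC 1.5 after quantile normalization (log2 FCs of -0.58 and -0.51) and loess centring (-0.57 and -0.49). The dim 201741_x_at had 56.8 on plastic and 21.4 on Myogel. The brighter 208863_s_at had 1813 on plastic and 1666 on Myogel (log2 FC -0.12), near to the brightest probe set of the gene. Probe set 226419_s_at had 309.5 on plastic and 249 on Myogel, and 229246_at, the dimmest by plastic value, was the only 1 of 8 above 0 (38 on plastic and 45.8 on Myogel). Thus the 2 brightest probe sets of SRSF1 were nearly equal on both arrays, and 5 of the other 6 had a lower log2 FC than these.

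SRSF4 held the largest difference of all the splicing factor probe sets. Probe set 241245_at had 3319.7 on plastic and 98.9 on Myogel, 33.6-fold lower on Myogel, while 95% of probe sets of like signal had log2 FCs of -0.57 to 0.63. No other probe set of SRSF4 resembled it, with 202 on plastic and 168 on Myogel for 242837_at, 60.2 on plastic and 30.5 on Myogel for 239512_at and 16.4 on plastic and 20 on Myogel for 239511_s_at. Values of 1000 or more on 1 array and under 100 on the other were found in 6 of 54613 probe sets, of which 5 were higher on plastic and 1 was higher on Myogel. The probe set of SRSF4 was 1 of these 6, and what sets them apart was not tested. Without 241245_at, an alternative chosen after its value was seen, 19 instead of 20 splicing factor probe sets passed FC 1.5 towards plastic.

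The other probe sets of SR genes with FC 1.5 or more were dim. SRSF3 had 45.1 on plastic and 9.37 on Myogel in 232392_at and SRSF5 had 33.5 on plastic and 7.05 on Myogel in 210077_s_at, under the median signal and inside the ranges for it. In SRSF3 the brighter 202899_s_at had 3309 on plastic and 2704 on Myogel, 208673_s_at had 2539.9 on plastic and 2478 on Myogel and 235324_at had 235 on plastic and 162 on Myogel (log2 FCs of -0.29, -0.04 and -0.53). One probe set of SRSF10, 210178_x_at, fell just short of FC 1.5 and lay outside its range of -0.50 to 0.45, with 1386 on plastic and 948 on Myogel (log2 FC -0.55). The other bright probe sets of SRSF10 gave -0.08 and 0.12.

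TRA2A and TRA2B, the human homologues of the fly sex determination factor transformer 2, bind enhancers next to SR proteins. In the brightest probe sets TRA2B had 6180.1 on plastic and 5461 on Myogel and TRA2A had 2192 on plastic and 2032 on Myogel, with log2 FCs of -0.18 and -0.11. All 4 probe sets of TRA2B were lower on Myogel, with 3040.2 on plastic and 2928 on Myogel for 200892_s_at, 661 on plastic and 528 on Myogel for 210180_s_at and 81.8 on plastic and 34.3 on Myogel for 239447_at. Only the dimmest passed FC 1.5 (2.38-fold lower), inside its range of -1.35 to 1.28. The 5 probe sets of TRA2A went both ways, between -0.30 and 0.39 on the log2 scale, and none passed FC 1.5.

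**Figure D2:**
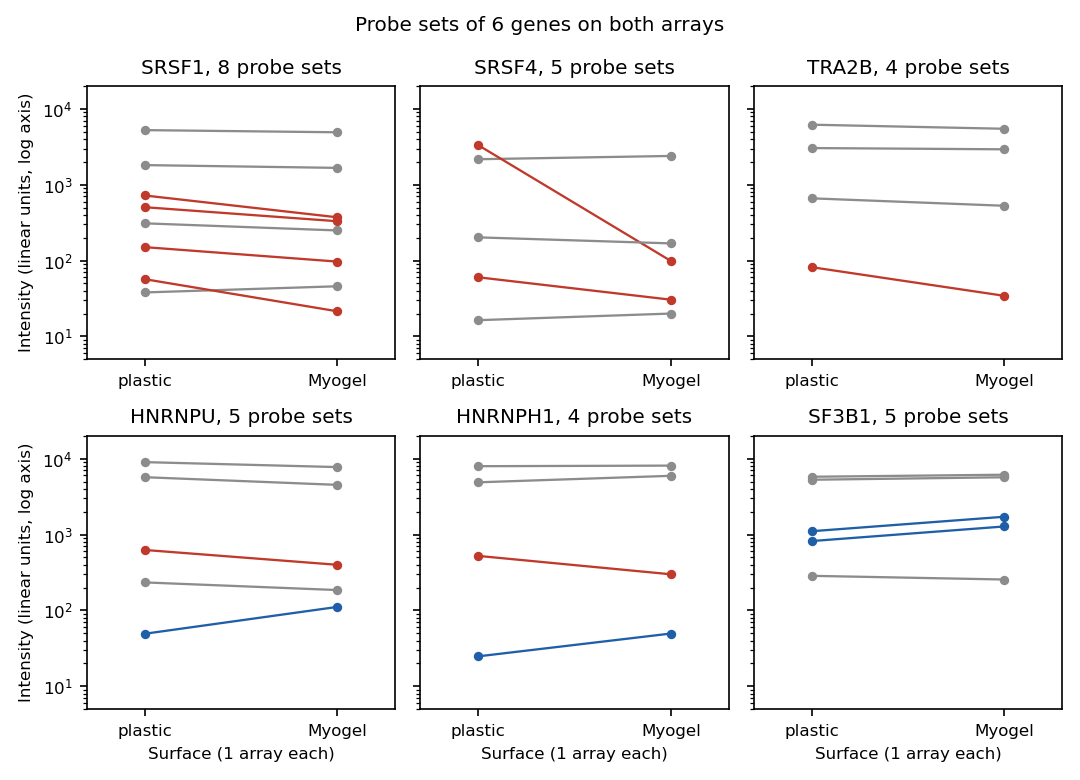
Intensity (y axis, linear units on a log axis) on plastic and on Myogel (x axis, 1 array each) for each probe set of SRSF1, SRSF4, TRA2B, HNRNPU, HNRNPH1 and SF3B1, with red lines for probe sets past FC 1.5 towards plastic and blue lines for those past it towards Myogel, and grey lines for the others. The brightest lines of SRSF1, TRA2B, HNRNPU, HNRNPH1 and SF3B1 are nearly flat, and in SRSF4 the probe set with 3319.7 on plastic is at 98.9 on Myogel.

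Of the 19 hnRNP genes measured, 17 stayed within FC 1.2 in the brightest probe set and all 19 within FC 1.5. HNRNPF, which binds runs of guanine, had 2236 on plastic and 1679.9 on Myogel in its single probe set (1.33-fold lower), at the edge of its range (-0.42 to 0.36). HNRNPA0, of the A/B group, had 3639 on plastic and 3008 on Myogel in its brightest probe set (1.21-fold lower). Its next probe set went the other way with 1934 on plastic and 2206 on Myogel, and its dimmest, 229083_at, had 690 on plastic and 603 on Myogel. The 19 genes had a median log2 FC of -0.03, with 8 above 0 and 11 below it. This median changed sign to 0.08 when the median of all probe sets was set to 0 and to 0.01 after quantile normalization. Leaving out _x_at, _s_at and _a_at probe sets also gave 0.01, but without HNRNPF, HNRNPK, HNRNPAB and HNRNPH3.

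The members of the A/B group are abundant proteins that often favour the skipping of exons. HNRNPA2B1 had the brightest probe set of all 40 genes, with 14751 on plastic and 14550.5 on Myogel (log2 FC -0.02). HNRNPA1, its close relative, had 6895 on plastic and 6042 on Myogel (log2 FC -0.19), HNRNPA3 had 3369.5 on plastic and 2878 on Myogel and HNRNPAB had 6272 on plastic and 6402 on Myogel. This probe set of HNRNPA1 is of the _x_at kind and may also detect related sequences, and its dimmer 222040_at and 221919_at gave log2 FCs of 0.29 and -0.42. HNRNPA3 gave log2 FCs of -0.23, 0.09 and 0.25 from the brightest to the dimmest probe set.

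HNRNPC, which coats nascent transcripts, had 10025 on plastic and 9819.8 on Myogel (log2 FC -0.03), and its 5 probe sets of 1000 or more lay between -0.16 and 0.19. HNRNPK, which binds runs of cytosine, had 9875 on plastic and 8892 on Myogel, and HNRNPM had 8969 on plastic and 9266 on Myogel. HNRNPD, known as AUF1 and a regulator of the decay of AU-rich mRNA, had 8752 on plastic and 8116 on Myogel. HNRNPDL, its relative, had 7311 on plastic and 6566 on Myogel. The second probe set of HNRNPDL went the other way (6354 on plastic and 7015 on Myogel, log2 FC 0.14), and its dimmer ones were lower on Myogel. HNRNPR, a relative of the RNA-binding protein SYNCRIP, had 8366 on plastic and 8385 on Myogel. HNRNPL and HNRNPLL, which bind CA-rich elements, went opposite ways in their brightest probe sets, with 3762 on plastic and 4311 on Myogel for HNRNPL and 1592 on plastic and 1443 on Myogel for HNRNPLL. The second probe set of HNRNPL, 35201_at, was 1.27-fold higher (3092 on plastic and 3941 on Myogel) and lay outside its range of -0.35 to 0.32, so that both of its probe sets were higher on Myogel. HNRNPH3 had 3723 on plastic and 4231 on Myogel, and 3 of its 4 probe sets were higher on Myogel. HNRNPUL1 and HNRNPUL2 had log2 FCs of 0.06 and 0.01.

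HNRNPU, also called scaffold attachment factor A, was lower in 4 of its 5 probe sets. The brightest had 9003 on plastic and 7747 on Myogel (log2 FC -0.22), at the lower edge of its range (-0.22 to 0.14). The second, 200593_s_at, had 5698 on plastic and 4515 on Myogel (log2 FC -0.34), and the third, 225805_at, had 626 on plastic and 399 on Myogel (1.57-fold lower), both outside their ranges of -0.30 to 0.26 and -0.61 to 0.64. Probe set 235603_at had 234 on plastic and 185 on Myogel. The dimmest, 216855_s_at, was 2.26-fold higher (49.2 on plastic and 111 on Myogel), above its range. The 4 brighter probe sets of HNRNPU thus went 1 way and the dimmest the other, and these directions held after quantile normalization and loess centring.

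HNRNPH1, a relative of HNRNPF, likewise differed among its probe sets. The brightest had 7956 on plastic and 8099 on Myogel (log2 FC 0.03), and the second, 213619_at, had 4879 on plastic and 5942 on Myogel (1.22-fold higher, outside its range of -0.30 to 0.25). The third, 213470_s_at, had 523 on plastic and 299 on Myogel (1.75-fold lower, outside its range of -0.68 to 0.60). The dimmest, 213472_at, had 24.8 on plastic and 49.5 on Myogel, a difference inside its range of -1.75 to 1.54.

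Over the 72 probe sets of hnRNP genes, 5 passed FC 1.5 towards Myogel and 10 towards plastic. These shares were 6.94% and 13.9%, against 13.8% and 24.2% of all probe sets. The 72 were brighter, with a median signal of 1705 against 53.8, so the shares are not for like signal. Apart from those of HNRNPU and HNRNPH1, 2 of the hnRNP probe sets that passed had a value at or above the median signal of 53.8. These were 1555843_at of HNRNPM, with 61 on plastic and 104 on Myogel, and 1554453_at of HNRNPLL, with 83.4 on plastic and 48.7 on Myogel, which fell short of FC 1.5 after loess centring (log2 FC of -0.56). Both lay inside their ranges. The rest were dim probe sets of HNRNPA2B1, HNRNPC, HNRNPD, HNRNPDL and HNRNPM. In HNRNPM, 233605_x_at had 41.4 on plastic and 1.76 on Myogel, outside its range of -4.32 to 4.03, and 234035_at had 1.01 on plastic and 5.41 on Myogel, so that the dim probe sets of this gene went both ways while the 2 brightest gave 0.05 and -0.02.

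The 9 measured subunits of SF3A and SF3B had brightest probe sets between -0.18 and 0.31 on the log2 scale, and none passed FC 1.5. Their median was 0.08, with 6 genes above 0, and it stayed between 0.07 and 0.18 under all the alternatives tried. SF3A3, SF3B4 and SF3B5 were missing when _x_at, _s_at and _a_at probe sets were left out. SF3B1, the large scaffold subunit of SF3B that contacts the branch point and is mutated in some leukaemias and melanomas, had 5776 on plastic and 6143 on Myogel by its brightest probe set and 5275 on plastic and 5686 on Myogel by the second (log2 FCs of 0.09 and 0.11). Its next 2 probe sets were higher on Myogel. Probe set 214305_s_at had 1106 on plastic and 1715 on Myogel (1.55-fold), and 201070_x_at had 820.2 on plastic and 1277 on Myogel (1.56-fold), both outside their ranges of -0.47 to 0.46 and -0.51 to 0.51. The dimmest, 229303_at, had 285 on plastic and 255 on Myogel. The 2 higher ones of SF3B1 were the only splicing factor probe sets with a signal of 1000 or more that passed FC 1.5, and both passed after quantile normalization and loess centring (log2 FC of 0.66 in each).

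SF3B4, the subunit that binds RNA upstream of the branch point, had 386 on plastic and 479 on Myogel (1.24-fold higher), inside its range of -0.62 to 0.58. SF3B2, its partner, had 3881 on plastic and 4314 on Myogel (log2 FC 0.15), and SF3B3 had 1425 on plastic and 1503 on Myogel (log2 FC 0.08). The small subunits SF3B5 and SF3B6 were slightly lower on Myogel, with 4562 on plastic and 4027 on Myogel for SF3B5 and 9927 on plastic and 8849.7 on Myogel for SF3B6. The other probe set of SF3B6 was at the floor of 1 on plastic and had 9.37 on Myogel, so its difference has no fixed size.

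In SF3A, which joins the U2 particle with SF3B, SF3A1 had 1835 on plastic and 1973 on Myogel, SF3A3 had 1229 on plastic and 1139 on Myogel and SF3A2 had 325 on plastic and 337 on Myogel. The 4 probe sets of SF3A1 went both ways, with log2 FCs of 0.10, 0.19, -0.28 and -0.33. Over all 20 probe sets of SF3A and SF3B genes, 3 passed FC 1.5 towards Myogel and 0 towards plastic. These shares were 15% and 0%, against 13.8% and 24.2% of all probe sets, which were dimmer (median signal of 53.8 against 1280). The 3 that passed were the 2 of SF3B1 and that of SF3B6 at the floor. Of the 20, 14 lay above 0 (70%), against 39.6% of all probe sets and 43.2% of those with a signal of 1000 or more. The 20 belong to 9 genes, 5 of them to SF3B1, so they are not independent of each other.

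**Figure D3:**
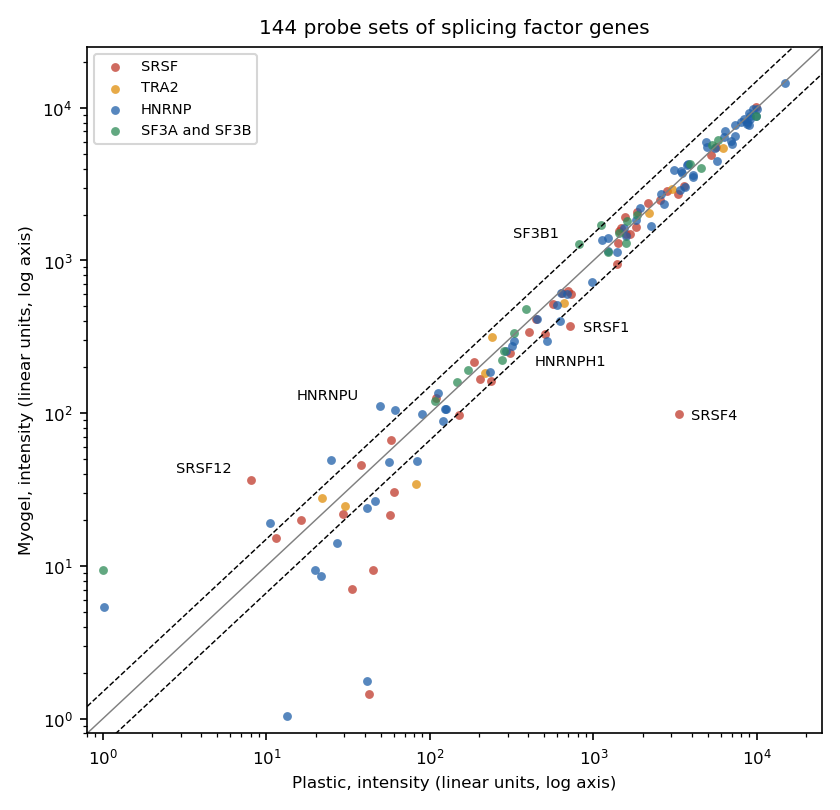
Intensity on Myogel (y axis) against plastic (x axis), both in linear units on log axes, for the 144 probe sets of the splicing factor genes, coloured by family. The solid line marks equal values and the dashed lines FC 1.5. Of the 74 probe sets with a signal of 1000 or more, 72 lie between the dashed lines and 2 of SF3B1 beyond them. The scatter widens below 100.

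Of 144 probe sets, 9 passed FC 1.5 towards Myogel and 20 towards plastic (6.25% and 13.9%), against 13.8% and 24.2% of all probe sets. In place of 9 and 20, quantile normalization gave 12 and 15, and loess centring gave 12 and 14. The 144 had a median log2 FC of -0.11, as did all probe sets, but the signals were unlike. Under the median signal, the medians were -0.78 for the splicing factors and -0.30 for all probe sets. Between it and 1000 they were -0.20 and -0.09, and at 1000 or more they were -0.02 and -0.03. Most of the calls lay under the median signal. Of 25 probe sets with a signal under the median, 18 passed FC 1.5 (72%), of 45 between the median and 1000, 9 passed (20%), and of 74 at 1000 or more, 2 passed. Among all probe sets in these classes, 64.7%, 14.8% and 1.44% passed. With a difference of at least 100 linear units as well, 2 of the 144 passed towards Myogel and 5 towards plastic, while 0.65% and 0.916% of all probe sets did. A probe set with both values under 100 cannot meet this limit. The median signal of the 144 was 1165 against 53.8 for all probe sets, so the 2 sets are not alike in this. The 5 towards plastic were 241245_at of SRSF4, 201742_x_at and 227164_at of SRSF1, 225805_at of HNRNPU and 213470_s_at of HNRNPH1, and the 2 towards Myogel were those of SF3B1.

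Probe sets of 1 gene often disagreed in direction. Of 35 genes with at least 2 probe sets, the 2 brightest lay on the same side of 0 in 18 (51.4%), and the same held for 54.5% of all such genes. Of the 104 probe sets that were not the brightest of their gene, 62 had a lower log2 FC than the brightest (59.6%), compared with 56.7% over all genes. Any probe set with FC 1.5 or more was found in 16 of the 40 genes, and 24 genes had none. This count was not made over all genes, and a gene with more probe sets has more chances to pass. By probe set, 20.1% of the 144 and 38% of all probe sets passed FC 1.5 in either direction. By kind, the 67 probe sets named _at, designed for a single transcript, had a median log2 FC of -0.16 and a median signal of 296. The 52 _s_at probe sets, shared by several transcripts, had a median of -0.05 and a median signal of 2516, so kind and signal varied together.

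HNRNPD-DT, which is transcribed divergently from HNRNPD, had 111 on plastic and 44.7 on Myogel in 1 probe set (2.48-fold lower), outside its range of -1.26 to 1.08. HNRNPD itself gave log2 FCs of -0.11, 0.06 and -0.28 in its 3 brightest probe sets. Its dimmer probe sets were all lower on Myogel, with log2 FCs from -0.13 to -3.69, each inside its range. HNRNPA3P1 had 106 on plastic and 81.5 on Myogel, inside its range.

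The 40 genes lie on 17 chromosomes, with 7 on chromosome 1 and 5 on chromosome 2. In the RefSeq promoter windows of GRCh38.p14, from 250 bases before to 50 after the start, 37 of the 40 genes were matched. Their median ratio of observed to expected CpG was 0.95, against 0.77 for 15384 measured genes, with a similar content of guanine and cytosine (64% and 63%).

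Other genes of splicing were examined in 6 lists written from general knowledge. Of 118 measured genes, 0 passed FC 1.5 towards Myogel and 1 towards plastic in the brightest probe set, and 8 and 7 passed FC 1.2. Their median log2 FC was 0.00. Of all genes, 9.71% and 17.5% passed FC 1.5, and 18.1% and 30.8% passed FC 1.2. Of the 335 probe sets of the 118 genes, 18 passed FC 1.5 towards Myogel (5.37%) and 36 towards plastic (10.7%). Of all probe sets, 13.8% and 24.2% did. The 118 genes too were bright, with a median signal of 2183. The gene towards plastic was CELF2, a regulator that is best known from muscle, brain and lymphocytes, which was dim here (72.1 on plastic and 37.6 on Myogel) and inside its range of -1.39 to 1.29.

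SR proteins are phosphorylated by the SRPK and CLK kinases and are carried into the nucleus by TNPO3. Of these 10 genes, 0 passed FC 1.5 in the brightest probe set, by which the genes of the other lists were counted too. Among the brightest probe sets of these genes the largest difference at or above the median signal was that of CLK3 (359 on plastic and 272 on Myogel, log2 FC -0.40), followed by CLK2 (887 on plastic and 757 on Myogel, log2 FC -0.23). The dimmer probe sets of SRPK2, a kinase of SR proteins that was chosen after its values were seen, held larger differences, with 590.1 on plastic and 319.5 on Myogel in one, outside its range of -0.63 to 0.61, and 341 on plastic and 226 on Myogel in another, while its brightest had 1203 on plastic and 1287 on Myogel. Among 26 partners of the U1 and U2 particles 0 passed FC 1.5. CHERP, which associates with U2, had 1752 on plastic and 2302 on Myogel (log2 FC 0.39), outside its range of -0.44 to 0.37. Its other 2 probe sets went the opposite way, with 66.7 on plastic and 22.4 on Myogel in the brighter of them (log2 FC -1.58, outside its range of -1.56 to 1.48) and a value at the floor on Myogel in the dimmer. U2AF2, which binds the polypyrimidine tract next to the branch point, had 2232 on plastic and 2588 on Myogel (log2 FC 0.21), whereas its second probe set had 322 on plastic and 201 on Myogel (log2 FC -0.68), inside its range.

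In the tri-snRNP and the catalytic spliceosome, 0 of 29 genes passed FC 1.5. DDX23, a helicase of the U5 particle, had 461 on plastic and 581 on Myogel, and PRPF8, the core of the catalytic centre, had 2905 on plastic and 2392 on Myogel. Among 38 other regulators of alternative splicing, PSPC1, a protein of paraspeckles that was chosen after its values were seen, was 1.45-fold higher (911 on plastic and 1318 on Myogel), outside its range of -0.53 to 0.48. Its other 4 probe sets went both ways, and the dimmest was 1.78-fold lower (123 on plastic and 69.2 on Myogel), inside its range. In the exon junction complex and mRNA export 0 of 9 genes passed FC 1.5, and THOC2, a subunit of the THO export complex, had 2294 on plastic and 2595 on Myogel and ALYREF, an export adaptor, had 5133 on plastic and 4686 on Myogel. In nonsense-mediated decay, the pathway that removes SR and hnRNP transcripts with premature stop codons, 0 of 6 measured genes passed FC 1.5. SMG9, a cofactor of the SMG1 kinase, had 186 on plastic and 131 on Myogel (log2 FC -0.50), inside its range of -0.88 to 0.65. A dimmer probe set of SMG9 went the opposite way, with 9.29 on plastic and 138 on Myogel (log2 FC 3.90), outside its range of -1.73 to 1.66. The direction for CHERP, U2AF2 and SMG9 thus depends on the probe set. SMG8, the partner of SMG9, had 845 on plastic and 765 on Myogel (log2 FC -0.14).

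**Figure D4:**
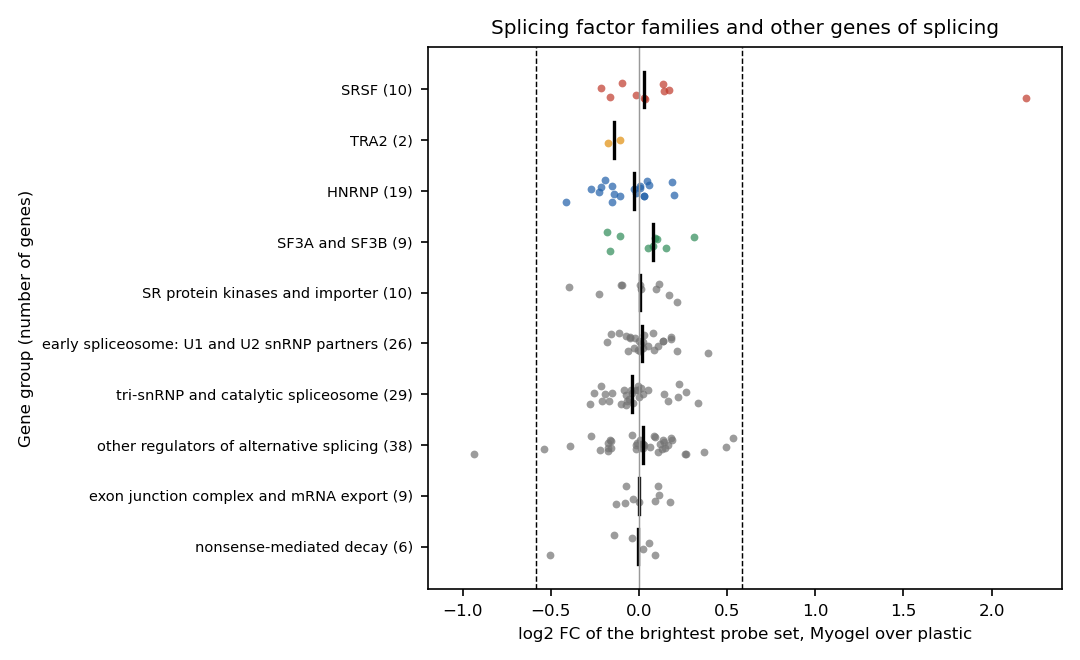
The log2 FC of the brightest probe set of each gene (x axis) for the SRSF, TRA2, HNRNP and SF3 genes (coloured) and 6 lists of other genes of splicing (grey), with the number of genes in parentheses (y axis). Black bars mark medians and dashed lines FC 1.5; SRSF12 at 2.19 and CELF2 at -0.94 are the only points beyond the dashed lines.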

How the data were processed

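HSC-3 cells on Myogel and on plastic were profiled with 1 array each, of RNA combined from 3 wells per surface. The deposited intensity values were made by the authors with the dChip software. Its version, and how it scaled the arrays, are stated in none of the sources read. They are linear with a floor of 1, which held 4.42% (plastic) and 4.73% (Myogel) of 54613 probe sets. The precision is limited by the number of arrays.

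Probe sets were named from the platform annotation, with symbols updated by Entrez identifier through the RefSeq gene table of GRCh38.p14. Of these, 41091 had 1 symbol, 1801 had several and 11721 had none. The 62 controls were left out. A gene was represented by its brightest probe set (by mean log2 value). Values are given for the brightest probe set of members, for all probe sets of genes past FC 1.2 in it, and for probe sets past FC 1.5 whose higher value reached the median signal. In each other list the genes past FC 1.5, or else the 2 that changed most, were named if their higher value reached the median signal. HNRNPA3P1 and HNRNPD-DT were kept apart. The members and lists were chosen with earlier results of these data known. Of 129 names in the other lists, 118 were measured by a probe set with 1 symbol.

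The alternatives were quantile normalization, loess centring (span 0.3), a median log2 FC of 0, offsets of 16 and 50, a filter on low signal (higher value under the median signal), leaving out _x_at, _s_at and _a_at probe sets, the mean over probe sets, limits of FC 1.2 and FC 2, and a difference of 100 linear units. The software was Python 3.11.15, pandas 2.3.3, numpy 2.4.6, matplotlib 3.10.9 and statsmodels 0.14.6, and the functions were tested on simulated data.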

Additional observations from a re-analysis of the deposited data

How the results depend on the processing

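No paired analysis was possible because each surface had 1 array and the labels carry no replicate numbers. Of the medians, that of the exon junction complex and mRNA export list moved by as much as the spread of its genes, to 0.11 when the median log2 FC was set to 0, and then 2 genes of the other lists were higher with FC 1.5 or more instead of 0. The median of the splicing factor genes lay between -0.10 and 0.10 over the alternatives. With _at and _i_at probe sets alone, SRSF5, SRSF6, HNRNPF, HNRNPK, HNRNPAB, HNRNPH3, SF3A3, SF3B4 and SF3B5 had no probe set left. The filter on low signal removed SRSF12. Medians and counts of genes under these settings thus cover fewer genes. The counts of splicing factor probe sets depended on the treatment of low signal. In place of 9 higher and 20 lower, there were 3 and 8 with an offset of 50, 4 and 10 with the filter on low signal, 4 and 14 with _at and _i_at probe sets alone, 19 and 39 with FC 1.2, 4 and 10 with FC 2, and 2 and 5 with a difference of 100 linear units. For genes, in place of 1 higher and 0 lower, 0 were higher with the offset of 50, with the filter and with the difference of 100 linear units, and 2 were higher and 2 lower both with FC 1.2 and with _at and _i_at probe sets alone. With the mean over probe sets 4 genes were lower, namely HNRNPD, SRSF4, SRSF5 and SRSF12, and SRSF12 reversed to -1.34. In HNRNPD, SRSF4 and SRSF5 the mean held 1 probe set with a far lower log2 FC than the others (-3.69, -5.07 and -2.25). The brighter probe sets of SRSF5 were higher on Myogel. SF3B6 was higher with this mean, through its probe set at the floor on plastic. With this mean and the filter on low signal, chosen after the data were seen, 0 genes were higher and 2 were lower. In the other lists, in place of 0 higher and 1 lower, 4 were higher and 5 lower with _at and _i_at probe sets alone, 4 and 8 with the mean, 1 and 3 with the mean and the filter, and 8 and 7 with FC 1.2. The lower count there was 0 with the offset of 50, with FC 2 and with the difference of 100 linear units. Fold changes with an offset are on the log2(value + offset) scale and understate differences of dim probe sets. Each value rests on 1 array per surface.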
